A study of Mus musculus with 12 samples.

Results

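The sites described here are the regions of the mouse genome where MYC and its partner MAX both had a ChIP-seq peak in cells that had not received an I-BET inhibitor. MYC peaks of untreated and of RANKL-treated cells were merged where they overlapped, and a merged region was kept when a MAX peak of untreated or RANKL-treated cells shared at least 1 bp with it. Of 462 merged MYC regions, 440 met this rule and are called co-bound regions. They were chosen by measured values, namely the presence of peaks in the untreated and RANKL lists of both proteins. The other 22 had no MAX peak in either of those lists.

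MYC and MAX are basic helix-loop-helix leucine zipper proteins, and MYC binds DNA as a dimer with MAX. The dimer prefers the E-box CACGTG, and MAX can also pair with itself or with MXD, MNT and MGA proteins at the same letters, so a MAX peak need not hold MYC. MYC is known for binding promoters of genes for ribosome production, translation, nucleotide synthesis and mitochondria. I-BET compounds occupy the bromodomains of BET proteins, which otherwise bind acetylated histones.

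RAW264.7, a mouse monocyte-derived line that RANKL turns into bone-resorbing osteoclasts, was the only cell type. The 4 treatments were no addition, RANKL at 50 ng/ml, I-BET at 500 nM, and RANKL at 50 ng/ml with I-BET at 500 nM, each agent given for 4 h. Each of the 2 antibodies (MYC and MAX) has 1 peak list per treatment, and the 4 input libraries were not used. The labels name bone marrow as the source of this line and do not say which I-BET compound was used, and the treatment protocol speaks of replicates while 1 library is listed per antibody and treatment. A difference between treatments therefore has no replicate check, and no p-value is given. Intervals are exact Clopper-Pearson 95% intervals and cover counting error only.

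Without inhibitor 312 MYC peaks were listed for untreated and 299 for RANKL-treated cells, and the inhibitor lists had 136 (I-BET) and 11 (both agents). For MAX the lengths were 8839, 10889, 36785 and 6307 in the same order. Each peak carries a score given by the authors, used here only to rank peaks within a list, with rank 1 for the highest score. The MYC I-BET list stood apart from the other MYC lists. The median width of its peaks was 72.5 bp, whereas that of untreated MYC peaks was 260 bp, and 102 of its 136 peaks lay outside the co-bound regions, at a median width of 66.5 bp and at ranks from 1 to 130. In the MAX I-BET list 17 peaks had a score of 0, although untreated MAX peaks at the same places had ranks of 116 or better, so these 17 were treated as listed without a rank.

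The promoter sequences that follow belong to co-bound regions that ranked among the best for MYC or were still listed for MYC with an inhibitor. They are the 250 bases before the annotated transcription start, 5′ to 3′ on the gene's strand, from RefSeq (GRCm38.p6), in lower case with each CACGTG in capitals. The first 4 genes have the E-box. G6pc3 encodes a widely expressed glucose-6-phosphatase (chr11:102189449-102189698, plus strand), Gtf2ird2 a TFII-I family protein (chr5:134183788-134184037, plus strand), Ubfd1 a ubiquitin family domain protein (chr7:122066948-122067197, plus strand) and Hdgf a growth factor (chr3:87906071-87906320, plus strand).
G6pc3: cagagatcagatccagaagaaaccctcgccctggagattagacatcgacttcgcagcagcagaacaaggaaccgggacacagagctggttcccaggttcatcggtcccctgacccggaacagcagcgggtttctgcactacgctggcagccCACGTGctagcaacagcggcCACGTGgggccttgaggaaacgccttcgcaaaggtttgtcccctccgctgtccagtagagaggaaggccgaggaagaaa
Gtf2ird2: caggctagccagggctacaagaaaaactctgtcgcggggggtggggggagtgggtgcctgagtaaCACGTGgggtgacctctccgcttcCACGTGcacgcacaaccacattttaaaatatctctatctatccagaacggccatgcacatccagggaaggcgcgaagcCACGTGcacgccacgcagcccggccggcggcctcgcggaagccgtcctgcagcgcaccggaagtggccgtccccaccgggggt
Ubfd1: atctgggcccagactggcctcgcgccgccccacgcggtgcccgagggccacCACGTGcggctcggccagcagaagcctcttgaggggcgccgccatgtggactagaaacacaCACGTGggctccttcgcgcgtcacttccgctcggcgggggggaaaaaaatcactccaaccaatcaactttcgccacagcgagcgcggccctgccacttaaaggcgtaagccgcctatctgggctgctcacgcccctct
Hdgf: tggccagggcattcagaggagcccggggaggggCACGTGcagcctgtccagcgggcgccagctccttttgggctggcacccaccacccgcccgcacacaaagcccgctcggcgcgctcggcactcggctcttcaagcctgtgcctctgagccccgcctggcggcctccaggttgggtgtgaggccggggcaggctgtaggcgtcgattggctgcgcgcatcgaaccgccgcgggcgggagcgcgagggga

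Promoters of other co-bound regions chosen in this way held no CACGTG in these 250 bases, which says only that these letters are not in the window. They are shown for Nop58, a core protein of box C/D small nucleolar ribonucleoproteins (chr1:59684756-59685005, plus strand), Snhg17, a host gene of small nucleolar RNAs (chr2:158361510-158361759, minus strand), and Nol8, a nucleolar protein (chr13:49652828-49653077, plus strand). The Nol8 window ends just before its co-bound region begins, while the other 6 windows overlap theirs.
Nop58: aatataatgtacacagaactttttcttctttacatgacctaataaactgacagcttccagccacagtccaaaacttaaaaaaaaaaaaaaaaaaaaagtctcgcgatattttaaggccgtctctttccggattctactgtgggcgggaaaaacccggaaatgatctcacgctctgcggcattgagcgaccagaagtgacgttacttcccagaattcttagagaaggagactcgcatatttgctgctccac
Snhg17: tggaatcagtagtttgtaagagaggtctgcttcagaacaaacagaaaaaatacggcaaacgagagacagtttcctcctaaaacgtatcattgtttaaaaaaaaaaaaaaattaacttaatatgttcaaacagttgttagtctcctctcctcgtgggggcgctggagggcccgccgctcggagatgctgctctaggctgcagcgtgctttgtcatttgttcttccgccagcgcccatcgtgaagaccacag
Nol8: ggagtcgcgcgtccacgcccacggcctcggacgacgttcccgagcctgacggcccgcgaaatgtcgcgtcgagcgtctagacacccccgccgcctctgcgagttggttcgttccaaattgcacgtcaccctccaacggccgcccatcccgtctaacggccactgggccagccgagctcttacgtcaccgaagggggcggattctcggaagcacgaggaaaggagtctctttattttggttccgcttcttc

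In the first 4 promoters the E-boxes sat at different distances from the start. Those of G6pc3 began 99 and 79 bases before it, those of Gtf2ird2 at 185, 161 and 83, those of Ubfd1 at 199 and 138, and the one of Hdgf at 217. The GC content of the 300 bases around the start (250 before to 50 after) was 59.7% for G6pc3, 63.7% for Gtf2ird2, 68% for Ubfd1 and 74% for Hdgf. It was lower for Nop58 (45.3%) and Snhg17 (47.3%), and 62.3% for Nol8.

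The co-bound regions were short and lay near the middle of broader MAX regions. Their width ranged from 145 to 5865 bp with a median of 288 bp (quartiles 230 and 360.5 bp). Of the 440, 427 lay wholly inside 1 merged MAX region, and the midpoint of 408 fell within the central 50% of it. The least overlap with MAX inside the rule was 86 bp, at the shared promoter area of Srsf2 and Mfsd11, followed by 145 bp at Brpf1. Just outside the rule, the nearest MAX region was 368 bp away from a MYC region within Arhgap21 and 811 bp away from one on chromosome 19.

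MYC in the 2 lists that defined the regions was shared at 145 of 440 (33.0%, 95% interval 28.6 to 37.6%), while 154 regions were listed for MYC in untreated cells only and 141 with RANKL only. These counts follow from the rule and are a description. Shared regions ranked higher: their median untreated MYC rank was 110 against 201.5 for those in the untreated list only, and their median RANKL rank was 100 against 188 for those in the RANKL list only. Over the 145, Spearman's rho between the MYC ranks of both lists was 0.36 (Pearson's r of the rank percentages 0.31). Over the regions listed for both proteins, rho between MYC and MAX rank was 0.30 in untreated cells (n = 295) and 0.28 with RANKL (n = 280). In each of these pairs the 2 lists rank the same regions, and high rank in one gave only a loose guide to rank in the other.

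Listing of MAX in the lists without inhibitor, which the rule used, is given as a description. MAX was listed at 434 of 440 in untreated cells and at 434 with RANKL, and at 428 in both. The MAX list with RANKL covered 154 of 154 regions whose MYC peak came from untreated cells only, and the untreated MAX list covered 139 of 141 whose MYC peak came from RANKL-treated cells only. MAX rank differed by MYC source: the median untreated MAX rank was 227 for regions in both MYC lists, 724.5 for untreated only and 941 for RANKL only.

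In the inhibitor lists few of these regions had MYC and nearly all had MAX. The MYC inhibitor lists hold 136 and 11 peaks and so could cover few of 440 regions that were chosen for MYC in the other lists; these MYC counts are a description. MYC with I-BET alone was listed at 24 of 440 (5.45%, 3.53 to 8.01%) and MYC with RANKL and I-BET at 10 (2.27%, 1.10 to 4.14%). MAX was listed at 439 (99.8%, lower bound 98.7%) with I-BET and at 420 (95.5%, 93.1 to 97.2%) with RANKL and I-BET. Over all 12422 merged MAX regions of untreated and RANKL-treated cells, the same shares were 0.233% for MYC I-BET, 0.0886% for MYC RANKL+I-BET, 96.2% for MAX I-BET and 46.8% for MAX RANKL+I-BET. The MAX I-BET share was close to that background, and the MAX I-BET list is the longest of the 4 MAX lists. Of the peaks in each MYC inhibitor list, 34 of 136 with I-BET and 10 of 11 with both agents lay on co-bound regions.

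**Figure D1:**
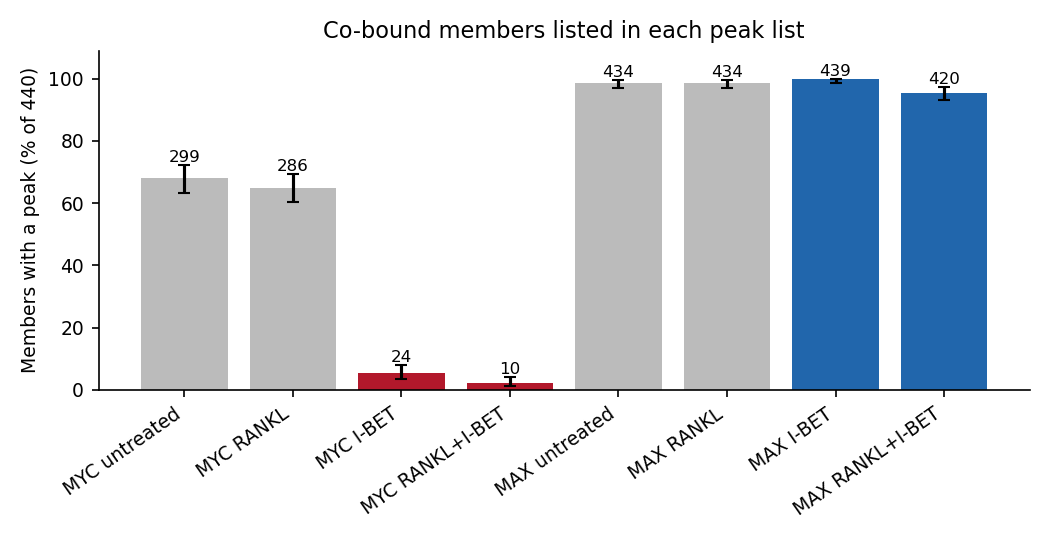
Share of the 440 co-bound regions (vertical axis, %) with a peak in each of the 8 lists (horizontal axis), with exact 95% intervals for counting error and the number of regions above each bar; the untreated and RANKL lists, in grey, defined the regions. MYC is listed at 299 and 286 regions by the choice of regions and at 24 and 10 in inhibitor lists of 136 and 11 peaks; MAX is listed at 420 to 439 with an inhibitor.

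Following each region through all 8 lists gave 18 patterns, of which 3 held most regions. In 148 regions MYC was listed in untreated cells only and MAX in all 4 lists. In 130 MYC was listed with RANKL only, and in 116 in both lists without inhibitor, again with all 4 MAX lists. In all, 417 regions kept MAX in the 4 lists, 30 had MYC in at least 1 inhibitor list, and 4 appeared in all 8 lists. Leaving out MYC inhibitor peaks under 100 bp, the regions listed for MYC numbered 16 with I-BET and 9 with both agents.

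Where MYC was still listed with an inhibitor, it had mostly been listed in both lists without one. Of the 145 shared regions, 23 were in the MYC I-BET list (15.9%, 10.3 to 22.8%), against 1 of the 154 untreated-only and 0 of the 141 RANKL-only regions (a count of 0 allows up to 2.58% by the exact interval). For RANKL with I-BET the counts were 8, 1 and 1. The split uses the 2 MYC lists that defined the regions, so these counts are a description. Among the 23 were 7, taken up below, whose MAX was absent with RANKL and I-BET. The 24 regions in the MYC I-BET list had a median untreated MYC rank of 63, against 167 for the 275 other regions of the untreated list. Of the 10 in the list with both agents, the 9 in the untreated list had a median rank there of 16, and the 9 in the RANKL list had one of 21.

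**Figure D2:**
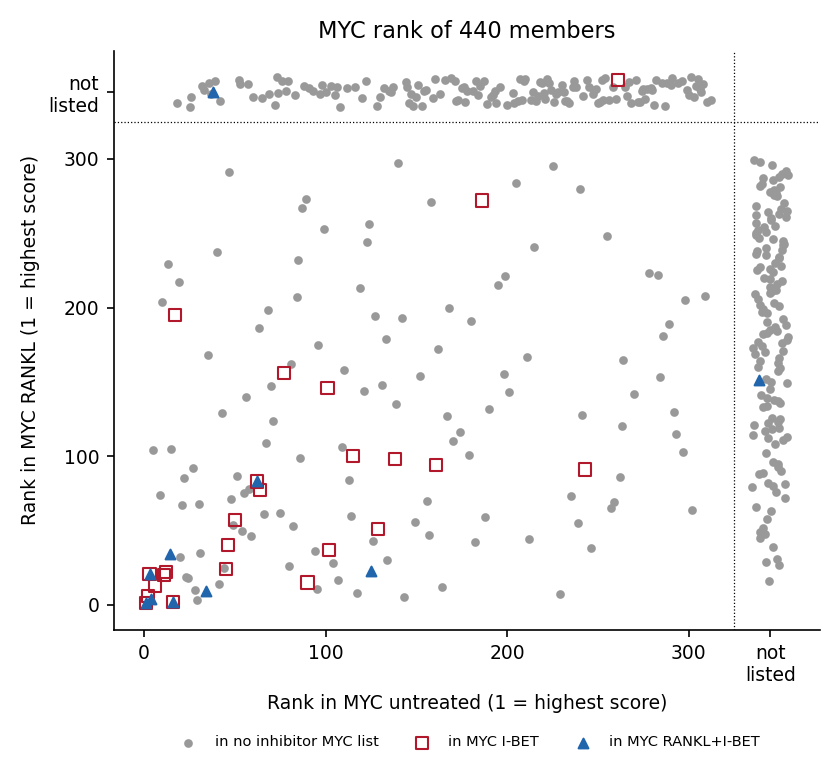
MYC rank of each co-bound region in the untreated list (horizontal axis) and the RANKL list (vertical axis), 1 being the highest score, with the bands for regions absent from one of the lists at the right and the top. Red squares are in the MYC I-BET list and blue triangles in the MYC RANKL+I-BET list; the triangles gather at low rank numbers, with a median rank of 16 in the untreated list and 21 in the RANKL list.

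The 4 regions present in all 8 lists were at Gm31068, Snhg15, Ncl and Snhg17, that is, at 3 non-coding RNA genes and 1 coding gene. Gm31068, a long non-coding RNA gene (chr5:142367479-142367951), ranked 1 for MYC in both lists without inhibitor, 120 of 136 with I-BET and 8 of 11 with both agents. Its MAX peak ranked 5 in untreated cells, 14 with RANKL and 3 with both agents, and its MAX I-BET peak carried a score of 0. This was the highest-ranking MYC region of both lists without inhibitor, and it stayed near the top for MAX.

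Ncl encodes nucleolin, a major nucleolar protein that acts in ribosomal RNA transcription and processing, and hosts small nucleolar RNAs in its introns. At chr1:86358491-86359056 its MYC ranks, in the order untreated, RANKL, I-BET and both agents, were 3, 21, 113 and 6. Its MAX ranks in that order were 43, 208, 9 and 17. Snhg15 and Snhg17 are host genes of small nucleolar RNAs. The Snhg15 region (chr11:6528431-6528943) had MYC ranks of 16, 2, 112 and 3, and MAX ranks of 206, 441, 237 and 125. The Snhg17 region (chr2:158361215-158361654) had MYC ranks of 62, 83, 103 and 10, and MAX ranks of 231, 164, 65 and 149. In all 4 regions the MYC I-BET rank was in the lower part of that list, while MAX ranked 441 or better wherever it had a rank.

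The other 6 regions listed for MYC with both agents were absent from the MYC I-BET list. Pemt, which encodes phosphatidylethanolamine N-methyltransferase, had the highest-scoring peak of the whole 11-peak list, after ranks of 4 in untreated cells and 4 with RANKL (chr11:60046318-60046694). Nop58 ranked 7 after 34 and 9, and Gtf2ird2 ranked 11 after 14 and 34. A region within Noc2l ranked 2 and was otherwise listed for MYC in untreated cells only (rank 38), and Mrpl23, a mitochondrial ribosomal protein gene, ranked 5 and was otherwise listed with RANKL only (rank 151). A region within Angptl6 ranked 9 after 125 and 23. The only peak of that list off the co-bound regions was 72 bp wide and lay within Kdm6b, at rank 4, where MAX ranked 331 in untreated cells and 188 with both agents.

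The 24 regions still listed for MYC with I-BET fell into 2 kinds by their MAX. In 17 of them MAX was in the list with RANKL and I-BET as well, and the untreated MAX rank was between 5 and 647 with a median of 231. These included the shared promoter of Hspd1 and Hspe1, the mitochondrial chaperonin pair, and the promoters of Rpl10a, Ppia (cyclophilin A), Mtg1, G6pc3, Hdgf and the gene pair Ears2 and Ubfd1. Hspd1 had MYC ranks of 17 in untreated cells, 195 with RANKL and 132 with I-BET. Rpl10a, a large-subunit ribosomal protein gene, had 50, 57 and 126, and Ppia had 243, 91 and 114. None of these 3 was listed for MYC with both agents.

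In the other 7, MAX was absent with RANKL and I-BET, and 6 of them also lacked MAX with RANKL. Their untreated MAX ranks were 2737 to 8133 with a median of 6966, and none was at the end of a coding gene (1 kb on either side), against 10 of the 17. They lay within Zc3h7a, within Cmss1 and Filip1l, within Cdk8, within Peak1, and outside genes on chromosomes 6, 11 and Y. The region within Zc3h7a had MYC ranks of 6 in untreated cells, 13 with RANKL and 100 with I-BET, but an untreated MAX rank of 6966 of 8839. MYC rank did not separate the 7 from the 17 (median untreated ranks 46 and 64), whereas their untreated MAX ranks did not overlap. The split was made after the values were seen. No peak was removed for lying in repeated or high-signal sequence, and whether the 7 reflect MYC binding was not tested.

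All MYC I-BET ranks on co-bound regions were between 72 and 136, so none lay in the upper part of that list. The 34 MYC I-BET peaks on co-bound regions had a median width of 121.5 bp, and 12 of them were under 100 bp. Of the 102 MYC I-BET peaks elsewhere, 93 were under 100 bp. Whether the peaks elsewhere reflect MYC binding was not tested.

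Co-bound regions lay toward the top of each MAX list, although most top MAX regions held no MYC: in the top 5%, 235 MAX regions held a co-bound region and 386 did not. MAX regions that held a co-bound region (433) had a median rank of 6.53% from the top of the untreated list and 5.48% of the RANKL list, against 52.0% and 51.8% for the MAX regions without one. Both lists belong to the rule, so this is a description. In the lists that the rule did not use, the median was 1.87% with I-BET against 17.0%, and 9.21% with RANKL and I-BET against 50.0%. The top 10% of the MAX RANKL+I-BET list held 53.0% of the listed regions with MYC and 7.66% of those without. In the MAX I-BET list these shares were 87.4% and 30.0%. At like rank in the lists without inhibitor the gap was smaller. In the top 5% the medians were 0.93% against 1.35% with I-BET and 4.80% against 6.52% with RANKL and I-BET, and from 5 to 10% the latter were 12.9% against 18.9%.

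**Figure D3:**
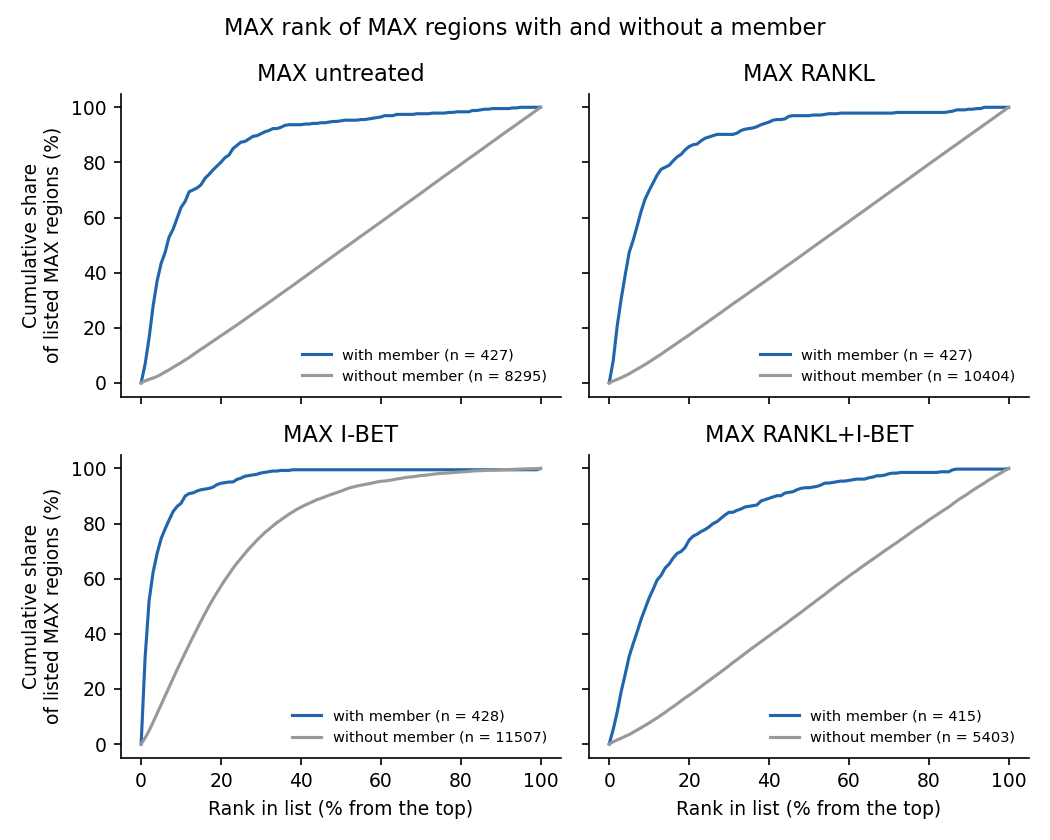
Cumulative share of listed MAX regions (vertical axis, %) against rank in percent from the top (horizontal axis) in each of the 4 MAX lists, for MAX regions with a co-bound region (blue) and without one (grey). The blue curves rise early in every list, with medians of 6.53, 5.48, 1.87 and 9.21%.

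MAX regions that held a co-bound region were listed more often with RANKL and I-BET than the others, 415 of 433 (95.8%, 93.5 to 97.5%) against 5403 of 11989 (45.1%, 44.2 to 46.0%). Most of that gap lay between MAX regions of unequal rank. By the best rank of a MAX region in the untreated or RANKL list, the top 5% held 235 regions with MYC, of which 235 stayed listed, and 386 without, of which 384 did. From 5 to 10% the counts were 87 of 87 and 521 of 534. From 10 to 25% they were 77 of 78 (98.7%) and 1502 of 1785 (84.1%), and below that 16 of 33 (48.5%, 30.8 to 66.5%) and 2996 of 9284 (32.3%, 31.3 to 33.2%). Only in the band from 10 to 25% did the intervals not overlap. Overlap does not show that shares are equal, and the lowest band spans ranks from 25 to 100%, which are not alike. MAX regions with a co-bound region were also wider, with a median of 796 bp against 483 bp. A listing needs only 1 bp of overlap, and the shares were not compared at like width.

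The 20 co-bound regions absent from the MAX RANKL+I-BET list were weak for MAX beforehand, with a median untreated MAX rank of 5301 over the 17 that had one, against 553 for the 417 ranked among the 420 still listed. Besides the 7 named with MYC I-BET they included the promoters of Snrpe, a core spliceosomal protein, Rpl7a, a ribosomal protein, and Cirbp, a cold-inducible RNA-binding protein. Rpl7a had MAX ranks of 7601 in untreated cells, 4546 with RANKL and 8018 with I-BET. The region of Gm52481 on chromosome Y ranked 3 for MYC with RANKL and 29 in untreated cells, yet its only MAX ranks were 9153 with RANKL and 3287 with I-BET. The 1 region absent from MAX I-BET lay at the small nuclear RNA gene Gm25099 on chromosome 4, with a MYC rank of 258 in untreated cells and a MAX rank of 10003 of 10889 with RANKL.

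Most co-bound regions lay at gene ends. Counting 1 kb on either side of both ends of each protein-coding gene, 279 of 440 were there (63.4%, 58.7 to 67.9%), a further 103 (23.4%) lay in gene bodies and 58 (13.2%) outside. Of all MAX regions 48.8% were at a gene end, of those with a co-bound region 66.5% (61.9 to 70.9%), and of those without MYC 48.1%. The order between regions with and without MYC was not the same at all MAX ranks: in the top 5% of MAX the share at gene ends was 65.1% (58.6 to 71.2%) with MYC and 69.4% (64.6 to 74.0%) without, with overlapping intervals. It was higher with MYC in the other bands: 75.9% (65.5 to 84.4%) against 55.8% (51.5 to 60.1%) from 5 to 10%, 65.4% against 53.0% from 10 to 25%, and 54.5% against 45.9% below that. The gene table holds no strand, so an end can be the 3′ end of a gene.

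Within 1 kb of an annotated start lay 273 of 430 regions (63.5%), the 10 on chromosome 18 not being covered by the promoter table. That table also holds starts of non-coding genes, so this share and the 63.4% at ends of coding genes cover unlike gene sets. At ends of genes of any biotype the share was 71.1%. The midpoints of 267 regions fell within 1 kb of a start at a median of 3.5 bp downstream, with quartiles at -103.75 and 125.5 bp. For MAX regions without MYC the median was -7.5 bp (quartiles -109.5 and 100.5 bp, n = 5308). Starts on both strands within 1 kb were found at 68 of 430 co-bound regions (15.8%, 12.5 to 19.6%) and at 9.88% of all MAX regions. The share was 17.5% (14.0 to 21.5%) of MAX regions with a co-bound region and 9.60% (9.08 to 10.2%) of MAX regions without MYC. Any start within 1 kb was found at 63.5% of co-bound regions and 46.8% of MAX regions without MYC. Of regions with such a start, both strands had one at 68 of 273 and 1125 of 5481. These shares were not compared by MAX rank.

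**Figure D4:**
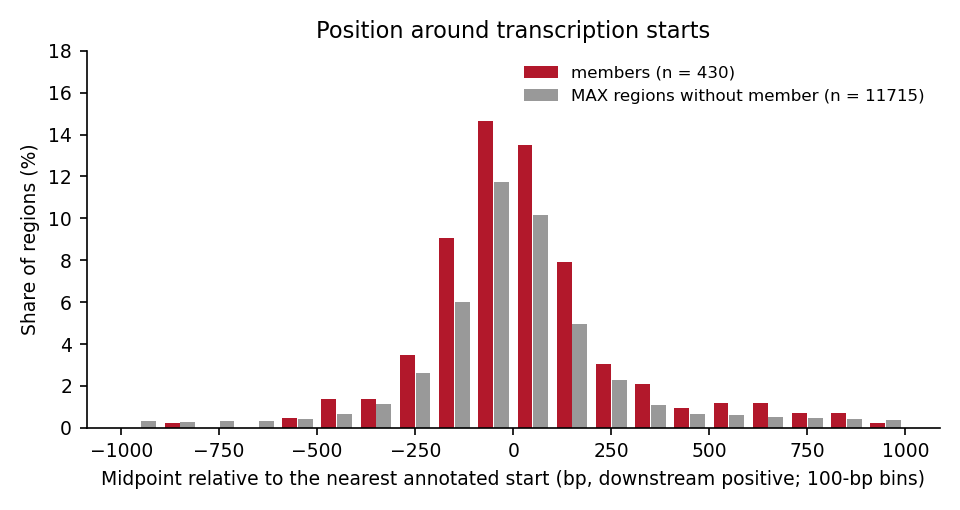
Share of regions (vertical axis, %) whose midpoint falls in each 100-bp bin around the nearest annotated start (horizontal axis, bp, downstream positive), for co-bound regions (red, n = 430) and MAX regions without MYC (grey, n = 11715). Both centre on the start, with medians of 3.5 and -7.5 bp.

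MYC stayed listed with I-BET at 10 of 279 regions at gene ends (3.58%, 1.73 to 6.49%), 5 of 103 in gene bodies (4.85%, 1.59 to 10.97%) and 9 of 58 outside (15.5%, 7.35 to 27.4%). Those outside protein-coding genes included the non-coding genes Gm31068, Snhg15 and Snhg17. They also included the widest co-bound region, 5865 bp over Rn18s-rs5, a copy of ribosomal RNA sequence on chromosome 17 (MYC ranks 2 in untreated cells, 6 with RANKL and 83 with I-BET). Ribosomal RNA genes exist in many near-identical copies, so reads of other copies cannot be told apart there.

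The canonical E-box CACGTG was searched on both strands, as all motifs here, in the 300 bases from 250 before to 50 after each start. It was found in 102 of 287 promoters that overlap a co-bound region (35.5%, 30.0 to 41.4%), in 929 of 6226 that overlap only MAX without MYC (14.9%, 14.0 to 15.8%) and in 7.15% of all 32851 promoters. Counted by gene the first share was 95 of 262 (36.3%). At least 2 E-boxes were held by 22 of the 287 (7.67%, 4.87 to 11.4%), against 1.67% (1.37 to 2.02%) of MAX promoters without MYC. Promoters with MYC thus held the E-box more often than MAX promoters without it when all were pooled.

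The difference was not the same at all MAX ranks. At promoters in the top 5% of MAX the E-box was found in 77 of 161 with MYC (47.8%, 39.9 to 55.8%) and in 90 of 310 without (29.0%, 24.0 to 34.4%). From 5 to 10% the order was the opposite, with 12 of 71 (16.9%, 9.05 to 27.7%) against 125 of 364 (34.3%, 29.5 to 39.5%). From 10 to 25% the shares were 12 of 43 (27.9%, 15.3 to 43.7%) and 259 of 1061 (24.4%, 21.9 to 27.1%), and below that 1 of 12 and 455 of 4491 (10.1%). These bands were chosen after the values were seen.

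The variant CACGCG was found in 127 of the 287 (44.3%, 38.4 to 50.2%), in 24.2% (23.1 to 25.3%) of MAX promoters without MYC and in 9.27% of all. In the top 5% of MAX it was held by 75 of 161 promoters with MYC (46.6%) and 96 of 310 without (31.0%), and from 5 to 10% by 36 of 71 (50.7%) and 129 of 364 (35.4%). From 10 to 25% it was held by 13 of 43 (30.2%) and 320 of 1061 (30.2%), and below that by 3 of 12 and 961 of 4491 (21.4%). Either form was present in 197 of 287 (68.6%, 62.9 to 74.0%), against 35.8% of MAX promoters without MYC and 15.4% of all promoters. By band the share with either form was 78.3% (71.1 to 84.4%) against 52.6% (46.9 to 58.3%) in the top 5%, 62.0% (49.7 to 73.2%) against 58.5% (53.3 to 63.6%) from 5 to 10%, and 53.5% (37.7 to 68.8%) against 49.5% (46.4 to 52.5%) from 10 to 25%. Only in the top 5% did the intervals not overlap.

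Other motifs differed less between promoters with MYC and MAX promoters without it. The variant CATGTG was in 9.06% and 8.01%, and in 14.2% of all promoters. The GC box GGGCGG, bound by SP and KLF proteins, was in 70.0% and 71.1%, and the ETS motif CCGGAAG in 23.3% and 23.0%. Of 3 palindromes of like base content, CTCGAG was in 9.06% and 7.23%, GTCGAC in 1.74% and 2.104%, and CAGCTG in 12.2% and 13.1%. The NF-Y box CCAAT was rarer with MYC, 26.1% (21.1 to 31.6%) against 36.6% (35.4 to 37.8%), and was in 37.4% of all promoters. Among promoters in the best 25% of MAX the shares were 26.2% (21.1 to 31.8%) and 33.7% (31.4 to 35.9%), with overlapping intervals. The NRF1 and YY1 motifs and the CRE TGACGTCA were in 3.48, 3.83 and 4.53% with MYC and in 2.41, 2.76 and 3.85% without, with overlapping intervals. Among all promoters GGGCGG was in 35.7%, CCGGAAG in 8.86%, CTCGAG in 3.92%, GTCGAC in 1.15%, CAGCTG in 16.3%, the NRF1 motif in 0.971%, the YY1 motif in 0.852% and TGACGTCA in 1.79%. A promoter that held several motifs was counted for each, and neighbouring motifs may share bases.

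**Figure D5:**
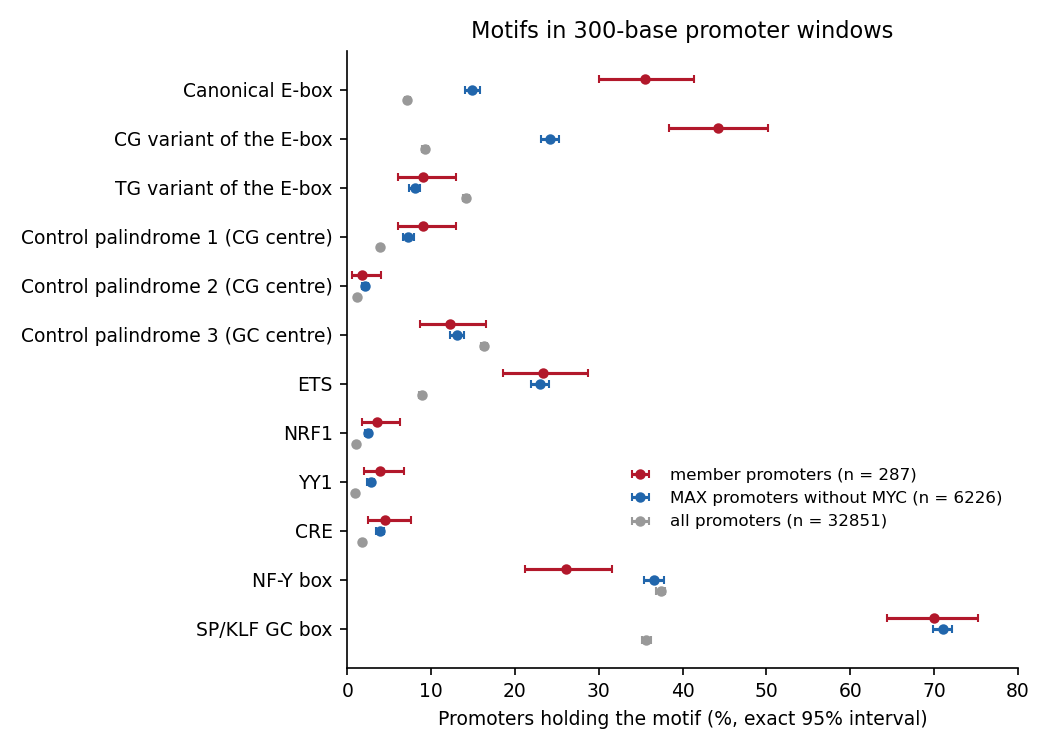
Share of promoters (horizontal axis, %, with exact 95% intervals) holding each motif (vertical axis) in the 300 bases around the start, for promoters with a co-bound region (red), MAX promoters without MYC (blue) and all promoters (grey). The canonical E-box stands at 35.5, 14.9 and 7.15%, and its CG variant at 44.3, 24.2 and 9.27%.

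Base composition was close between both groups: the median GC content was 64.7% with MYC and 63.7% without, and the median number of CpG in 300 bases was 28 and 25. Over all promoters the medians were 52.7% and 7. Of the 128 E-boxes in promoters with MYC, 93 (72.7%, 64.1 to 80.2%) lay within 100 bp of the midpoint of the co-bound region, at a median distance of 48.5 bp. For CTCGAG it was 10 of 26 (38.5%, 20.2 to 59.4%) and for CAGCTG 16 of 36 (44.4%, 27.9 to 61.9%). The share near the midpoint was higher for E-boxes than for either palindrome. However, the 287 promoters lie over 217 co-bound regions, and windows that overlap can count 1 site more than once. The intervals treat sites as independent, so they cannot decide whether the shares differ.

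The E-box share was 34.4% (24.9 to 45.0%) at promoters listed for MYC in untreated cells only, 30.2% (21.3 to 40.4%) with RANKL only and 41.8% (31.9 to 52.2%) in both. Where MYC stayed listed with an inhibitor, 7 of 15 promoters held it (46.7%, 21.3 to 73.4%), against 95 of 272 (34.9%, 29.3 to 40.9%) elsewhere. These intervals overlap, and no difference was detectable with 15 promoters.

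In terms of genes, a co-bound region lay at an end of 346 of 21883 protein-coding genes (1.58%) and of 58 long non-coding RNA genes (0.456% of those annotated). Genes for making ribosomes were well represented. Of 57 genes for ribosome biogenesis 16 had a co-bound region (28.1%, 17.0 to 41.5%), 53 of the 57 having a MAX region. Among them were Ncl, Nop58, Nop56, Gar1 and Dkc1, proteins of small nucleolar ribonucleoproteins or of the nucleolus, Bop1 and Mybbp1a in ribosomal RNA processing and transcription, Gnl3 (nucleostemin) and Polr1b, part of the polymerase that transcribes ribosomal RNA. In 9 of the 16 MYC was listed in both lists without inhibitor, in 3 in untreated cells only and in 4 with RANKL only. MAX was listed at 16 of 16 in each inhibitor list, MYC at 1 with I-BET (Ncl) and at 2 with both agents (Ncl and Nop58).

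Ranks varied among the ribosome biogenesis genes. Rrp1b, a nucleolar processing factor, had MYC ranks of 10 in untreated cells and 204 with RANKL and none with inhibitor, and MAX ranks of 201, 377, 53 and 648 from untreated cells to both agents. Nop56 had MYC ranks of 284 and 153, and MAX ranks of 1018, 427, 730 and 569. Gar1 had MYC ranks of 99 and 253, and MAX ranks of 114, 160, 196 and 174. Bop1 was listed for MYC in untreated cells only (rank 76), with MAX ranks of 315, 773, 199 and 428. These 4 genes had no MYC in either inhibitor list. MAX ranks were not high at all 16: Nop14 had 2352, 1961, 3946 and 5228, and Dkc1 had 1320, 4357, 6438 and 1037.

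Ribosomal protein genes had a co-bound region at 17 of 73 (23.3%, 14.2 to 34.6%) and translation factor genes at 8 of 43 (18.6%, 8.39 to 33.4%). Rpl32 had MYC ranks of 107 in untreated cells and 17 with RANKL, and Rpl5 of 188 and 59. Eif4a1 (rank 45, RANKL only) and Eif5a (rank 172, untreated only) were among the translation factors. Rpl7a was the only 1 of these 25 genes without MAX in the list with RANKL and I-BET, and Rpl10a the only 1 with MYC in an inhibitor list. Of 36 genes for tRNA synthetases 3 had a co-bound region, Ears2, Yars and Vars.

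Genes of metabolism and mitochondria had shares whose intervals overlap those of the ribosome groups. In nucleotide, one-carbon and polyamine synthesis 7 of 40 had a co-bound region (17.5%, 7.34 to 32.8%). They were Ctps (CTP synthase, RANKL rank 16), Odc1 (ornithine decarboxylase, the first enzyme of polyamine synthesis, RANKL rank 185), Srm (spermidine synthase, untreated rank 88), Atic, Mat2a, Nme1 and Nme2. MYC was in no inhibitor list at any of the 7, and MAX in both at all 7. Mitochondrial biogenesis and import had 7 of 45 (15.6%, 6.49 to 29.5%), namely Pprc1, Mtg1, Hspd1, Hspe1, Timm9, Mrpl23 and Twnk, with MYC still listed at 3 of the 7 with I-BET (Mtg1, Hspd1 and Hspe1, which share 1 region) and at 1 with both agents (Mrpl23). Glycolysis and the pentose phosphate pathway had 2 of 25, Hk2 (hexokinase) and Pkm (pyruvate kinase).

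Among the remaining groups, chaperones had 5 of 23 (Ppia, Cct8, Cct7, Hspa8 and Cct3) and spliceosome and RNA-binding proteins 8 of 40. The cell cycle group had 2 of 38, cyclin D1 (Ccnd1, untreated MYC rank 18, the best among regions listed in untreated cells only) and the mitotic kinase Aurka (ranks 80 and 26). Host genes of small nucleolar RNAs had 2 of 21, both of them present in all 8 lists (Snhg15 and Snhg17). Nuclear pore and transport had 3 of 34, including Ran. These shares stand beside 1.58% for all protein-coding genes. Snhg15 and Snhg17 are long non-coding RNA genes, for which the share was 0.456%. The lists were drawn up with earlier results of these data in view, so the shares are descriptions, and 263 of the 346 coding genes were in none of the lists.

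Lists for macrophages, osteoclasts and inflammation gave counts that stand beside 1.58% of all coding genes, a share at which a list of this size may hold none. Of 27 osteoclast genes none did, of which 9 had a MAX region, and of 28 NF-kB and inflammatory genes none did, of which 18 had one (an exact interval allows up to 12.8% and 12.3%). Lysosome and V-ATPase genes had 0 of 34, with a MAX region at 26 (up to 10.3%). Among macrophage and myeloid regulators 3 of 28 had one (10.7%, 2.27 to 28.2%): Klf4 with MYC in untreated cells only (rank 218), and Spi1, which encodes PU.1, and Cebpa with MYC with RANKL only (ranks 234 and 252). For Spi1 the MAX ranks were 2711 (untreated), 740 (RANKL), 2838 (I-BET) and 799 (both agents). Brd2, a target of I-BET compounds itself, had MYC with RANKL only (rank 170) and was the only 1 of 20 genes for BET proteins and P-TEFb with a co-bound region. None of 13 genes of the MYC, MAX, MXD and MLX network had one.

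Of the small RNA classes, tRNA genes were overlapped by 2 of 440 co-bound regions (0.455%) and 0.542% of MAX regions without MYC. For snoRNA genes it was 2 of 440 (0.455%, 0.0551 to 1.63%) and 0.100% (0.0517 to 0.175%), with overlapping intervals. For miRNA genes it was 0 of 440 (up to 0.835%) and 0.275%. Genes annotated as small nuclear RNA were overlapped by 8 of 440 (1.82%, 0.788 to 3.55%) and by 23 of 11989 MAX regions without MYC (0.192%, 0.122 to 0.288%). Of the 8, 4 lay at the U3 genes Rnu3b1, Rnu3b2, Rnu3b3 and Rnu3b4 within Tex14 on chromosome 11. U3 is a small nucleolar RNA needed for the first cleavages of the ribosomal precursor RNA. The annotation lists these 4 as small nuclear RNA genes, so the snoRNA count above leaves them out. Rnu3b3 had MYC ranks of 55 in untreated cells and 75 with RANKL, Rnu3b4 of 174 and 116, and Rnu3b1 of 133 and 179, while Rnu3b2 was listed in untreated cells only (rank 32). MAX was listed at these 4 in every treatment, and MYC in no inhibitor list. The 4 genes are near-identical copies, so reads can be shared between them and the regions are not independent.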

How the data were processed

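MYC and MAX ChIP-seq of RAW264.7 cells gave 8 peak lists, 1 for each antibody and treatment. FastQC, Bowtie2 2.3.4.1, MACS2 2.1.1.20160309 and the builds mm10 and GRCm38 (the same assembly) are named in the submitters' processing notes. Not given in the sources used here are the use of input, the calling thresholds, duplicate handling and the depth per library. The score of each peak was deposited by the authors. Each row joins peaks of 3 call sets (numbers 3, 5 and 7), of unstated nature, and the score times the number of joined peaks is whole within 1.09e-11, as for a mean. MYC and MAX lists carry different tags in their names, so MYC and MAX counts are set side by side as listed only, and list lengths differ with how each was called.

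Peaks were merged where they overlapped or touched, and 1 bp counted as overlap. Positions were converted to count from 1, and tied scores were ranked by position. MAX peaks with a score of 0 were kept among the highest-scoring ones where a list was shortened. Gene extents and promoters came from RefSeq (GRCm38.p6), and 672 of 673 gene list entries matched it.

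The regions, gene lists and alternatives were chosen with earlier results of these data known. Genes named were taken from the 10 regions with the best mean MYC rank, the 5 best of each single MYC list and the regions in a MYC inhibitor list. Further sources were the 20 regions without MAX in an inhibitor list, up to 6 genes per gene list, the 5 widest regions, and those nearest to the MAX overlap threshold. Not every gene of these sets is named, and the choice among them was made with their values known. Other names (the U3 genes, Spi1, Cebpa, Brd2 and further list genes among them) were chosen after their values were seen.

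The software was Python 3.11.15 with scipy 1.17.1, pandas 2.3.3, numpy 2.4.6 and matplotlib 3.10.9. On simulated data 264 of 264 planted overlaps and 350 of 350 planted motifs were found, and merging and overlaps showed 0 differences from bedtools 2.31.1.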

Additional observations from a re-analysis of the deposited data

Results flagged for a closer look

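The number of co-bound regions listed for MAX was higher with I-BET than without it in the absence of RANKL, and lower in its presence. Without RANKL it changed by 5, from 434 to 439 regions, and in the presence of RANKL by -14, from 434 to 420. The difference between these changes was not tested, since each rests on 1 list per treatment. Both counts of 434 come from lists that the rule used, so the changes are a description. Over all merged MAX regions of untreated and RANKL-treated cells, 96.2% were listed with I-BET and 46.8% with both agents. The 2 inhibitor lists differ in length (36785 peaks for I-BET alone and 6307 for both agents). Their part in the result was not tested beyond shortening the longer list: its 6307 highest-scoring peaks covered 409 regions. That is fewer than the 434 of the untreated list, which was not shortened, so the rise with I-BET was seen only at full list length.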

How the results depend on the processing

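Of 44 alternatives, 29 left their result within its 95% counting interval (counts within 1.5 times), and 15 moved it. Some of the 29 could not have moved it. The narrowest region was 145 bp wide, so keeping only regions of at least 100 bp changed nothing. The MAX RANKL+I-BET list is itself the shortest MAX list, so shortening it to that length changed nothing either. With only the higher-scoring 50% of each inhibitor list, the share of regions listed became 0% for MYC I-BET, 0.909% for MYC RANKL+I-BET and 88.9% for MAX RANKL+I-BET. Regions built from the untreated MYC list alone gave 8.64% in MYC I-BET, and from the RANKL list alone 8.04%, with 100% in MAX I-BET. As many top MAX I-BET peaks as the shortest MAX list holds gave 93.0%. The number of regions was 215 from the higher-scoring 50% of the 4 lists and 280 from the RANKL lists alone. The share at gene ends was 57.3% within 0.5 kb, 71.8% within 2.5 kb and 71.1% for genes of any biotype. The E-box share was 51.9% (14 of 27) for promoters lying whole inside a region, 68.6% for CACGTG or CACGCG and 22.6% from 100 bases before the start (4.35% of all promoters). MAX-rank bands, palindromes, counts by gene, annotated starts and the 100 bp minimum for inhibitor peaks were added after the data were seen. No paired analysis was possible because each group has 1 library and the labels carry no replicate number. Read depth per library is unknown, so a peak that is not listed may lie below detection.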

Other observations

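The 22 MYC regions without MAX in untreated or RANKL-treated cells differed from the co-bound ones in place. Outside genes lay 14 of 22 (63.6%, 40.7 to 82.8%), against 58 of 440. The highest-ranking was at Nudt13, a mitochondrial NUDIX hydrolase gene, with MYC ranks of 7 in untreated cells and 41 with RANKL and its nearest MAX region 53098 bp away. It was in none of the other 6 lists. The next at a gene end was at Lars2, the mitochondrial leucyl-tRNA synthetase gene, with an untreated MYC rank of 61 and a MYC I-BET rank of 124. Of the 22, 15 overlapped a MAX I-BET peak, 5 a MYC I-BET peak and 0 a MAX RANKL+I-BET peak, and 2 were in both MYC lists without inhibitor. No peak was removed here for lying in repeated or high-signal sequence, and whether the 22 reflect MYC binding was not tested.

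Co-bound regions were most numerous on chromosome 11 (53 of 440) and chromosome 7 (41), with 3 on chromosome X and 2 on chromosome Y. MAX regions and genes were not counted by chromosome, so these numbers have no background beside them. The distance to the next co-bound region was within 10 kb in 17 cases.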
